A study of Mus musculus with 12 samples.

Results

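The liver is the main site where amino acids are broken down and where their nitrogen is turned into urea. A set of 41 genes of amino acid breakdown and the urea cycle was followed across 4 groups of mouse livers. The genes were listed by name and pathway, and each was read from its probe set with the highest mean signal. Of the 41 genes, 38 had a probe set that carries a single gene symbol and were measured, out of 12393 genes on the arrays. These were 5 genes of the urea cycle, 8 of sulfur amino acids, 9 of aromatic amino acids, 8 of branched chain amino acids and 8 of other routes. Ass1 shares its probe set with another symbol, and Gls2 and Sds had no probe set of their own in the annotation used here, so these 3 genes are not reported.

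The groups were RXRα-deficient mice fed retinoic acid (KO_RA), RXRα-deficient mice on the normal diet (KO), wild type mice fed retinoic acid (WT_RA) and wild type mice fed the normal diet (WT), with 3 arrays each. All were male C57BL/6 mice of 12 weeks. In the deficient mice, Cre driven by the albumin promoter removed the floxed exon 4 of Rxra, which encodes part of the DNA-binding domain of the retinoid X receptor alpha. The deletion is thus limited to hepatocytes, and according to the study's methods a shortened receptor that keeps its ligand-binding domain is still made. The retinoic acid diet held all-trans retinoic acid (RA) at 150 mg/kg and was given for 7 days. The titles call the samples biological replicates. Values are on the log2 scale, so that a difference of 1 is a doubling of signal, and calls were made at 0.05 on p-values from limma, a linear model fitted to all 12 arrays, adjusted over all 12393 genes.

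Amino acids lose their nitrogen by transamination or by direct release of ammonia, and the urea cycle joins this nitrogen with bicarbonate to make urea. The carbon skeletons pass through separate routes: tyrosine and tryptophan are opened to smaller acids, leucine, isoleucine and valine are oxidised in mitochondria, and methionine is turned by way of S-adenosylmethionine and homocysteine into cysteine and taurine. RXRα pairs with other nuclear receptors, among them the retinoic acid receptors, and many of the enzymes named here are expressed almost entirely in hepatocytes.

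Array medians ran from 6.26 to 6.35, and rank correlations within groups from 0.978 to 0.994. The 3′ control probe set of Actb read 9.12 on KO 1 and 9.40 on WT_RA 3, against 12.1 to 12.9 on the other arrays, and calls that were lost without these 2 arrays are named. Rxra itself differed by -0.03 ± 0.18 between KO and WT livers (SE, adjusted p = 0.949 by limma), but the position of its probe set relative to the deleted exon was not at hand, and the value therefore tests neither deletion nor labels. The median deviation of 12 genes listed as hepatocyte markers lay between -0.10 and 0.07 on every array. None of them was called in any comparison of 2 groups, with at most 2 at an unadjusted p under 0.05. The list holds Trh, the gene of thyrotropin-releasing hormone, which is no hepatocyte marker and had group means of 6.22 to 6.51. Single markers varied more, Apob averaging 13.00 in KO_RA, 12.35 in KO, 12.51 in WT_RA and 13.18 in WT livers. Summed signal of the 14 measured markers of Kupffer cells and macrophages, by contrast, ran between 3630 and 4290 in KO_RA, 3210 and 14900 in KO, 3730 and 7210 in WT_RA and 2240 and 2700 in WT livers. In whole liver RNA, fewer hepatocytes and less RNA per hepatocyte cannot be told apart.

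Promoters are shown for Got1, Prodh, Csad and Hal, the genes whose changes by RXRα deficiency lead the results below. Each is a RefSeq window of GRCm38.p6 (250 bases before and 50 after a transcription start), printed 5′ to 3′ in the direction of transcription, with capitals for the letters AGGTCA or GGGTCA, short motifs that nuclear receptors recognise. Got1 lies at chr19:43524556-43524855, Prodh at chr16:18089141-18089440, the second Csad start at chr15:102188994-102189293 (all minus strand), and Hal at chr10:93488518-93488817 (plus strand).
Got1: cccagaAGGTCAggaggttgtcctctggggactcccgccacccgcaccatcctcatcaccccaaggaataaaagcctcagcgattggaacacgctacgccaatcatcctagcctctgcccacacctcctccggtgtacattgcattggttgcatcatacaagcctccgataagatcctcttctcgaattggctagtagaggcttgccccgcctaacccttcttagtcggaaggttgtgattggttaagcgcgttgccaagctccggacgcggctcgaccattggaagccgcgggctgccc
Prodh: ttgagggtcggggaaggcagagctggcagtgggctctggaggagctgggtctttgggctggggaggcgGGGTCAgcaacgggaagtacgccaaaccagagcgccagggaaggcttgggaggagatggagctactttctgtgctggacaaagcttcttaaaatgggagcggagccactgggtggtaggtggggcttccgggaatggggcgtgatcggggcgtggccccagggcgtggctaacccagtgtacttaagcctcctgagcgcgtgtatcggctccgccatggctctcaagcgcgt
Csad: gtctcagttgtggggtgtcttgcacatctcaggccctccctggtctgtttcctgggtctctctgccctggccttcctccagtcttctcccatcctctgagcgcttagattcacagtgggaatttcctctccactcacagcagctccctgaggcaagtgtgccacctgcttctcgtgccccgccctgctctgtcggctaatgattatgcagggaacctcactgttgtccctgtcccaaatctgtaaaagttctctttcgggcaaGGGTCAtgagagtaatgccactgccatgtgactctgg
Hal: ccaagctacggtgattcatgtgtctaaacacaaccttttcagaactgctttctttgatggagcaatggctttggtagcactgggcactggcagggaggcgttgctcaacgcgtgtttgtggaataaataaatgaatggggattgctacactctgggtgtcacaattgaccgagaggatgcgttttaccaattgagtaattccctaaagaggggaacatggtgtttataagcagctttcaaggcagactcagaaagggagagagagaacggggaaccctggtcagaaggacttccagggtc
AGGTCA began 244 bases before the Got1 start, GGGTCA 182 bases before the Prodh start, and GGGTCA 13 bases after the second Csad start. The Hal window held neither motif on either strand, nor did the window at the first Csad start. Of the 41 listed genes, measured or not, 30 had a window in this table. Of these 30 members, 14 (46.7%) held AGGTCA and 9 (30%) held GGGTCA on either strand in any of their windows, against 18.1% and 15.3% of all 27025 genes. The number of windows per gene was not matched. AGTTCA was in 6 members (20%), against 15.7% of genes, and a direct repeat of AGGTCA with 1 free base between the copies, which contains AGGTCA, in 0 members, against 0.0481% of genes. A match describes letters only.

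Across the comparisons, 9 of the 38 genes were called at least once. They were Otc, Csad, Mat1a, Tat, Kynu, Hal, Got1, Prodh and Agxt. The other 29 genes were called in none.

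**Figure D1:**
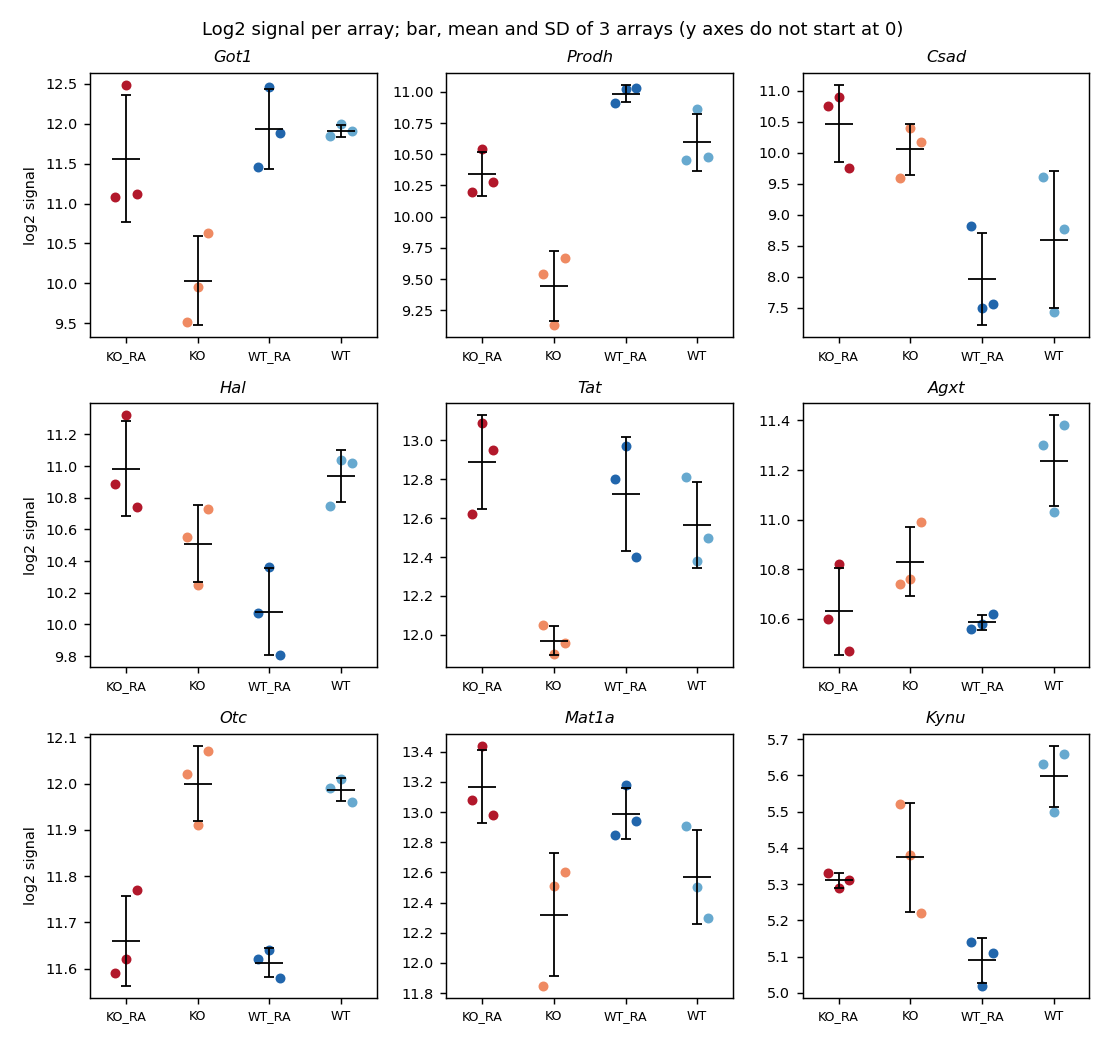
Log2 signal of the 9 called genes on each array (dots, 1 per liver), with groups ordered KO_RA, KO, WT_RA and WT from left to right and bars for the mean and SD of 3 arrays. Got1 and Prodh lie lowest in the 3 KO livers, the KO_RA livers lie above the WT_RA livers for Csad, and Otc lies lower in the RA-fed groups of both genotypes.

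RXRα deficiency on the normal diet lowered 2 of the 38 genes and raised 0 of them, while 1.32% of all genes were called, 0.831% as lower and 0.484% as higher. Both falls were of genes outside the urea cycle and the routes of sulfur, aromatic and branched chain amino acids. Got1, the cytosolic aspartate aminotransferase, read 9.52, 9.96 and 10.63 in the KO livers, against 11.84, 11.99 and 11.91 in the WT livers. All 3 KO livers lay below all 3 WT livers, by 1.88 ± 0.37 on the log2 scale in the model (SE, adjusted p = 0.0345), a 3.67-fold lower signal. This call was absent without WT 1, WT 2, WT 3, KO 1 or KO 2, with adjusted p up to 0.111 in these fits, and an adjusted p of 0.0822 without KO 1 and WT_RA 3 together. Prodh, the mitochondrial enzyme that starts proline oxidation, read 9.54, 9.13 and 9.67 in the KO livers, against 10.45, 10.86 and 10.48 in the WT livers. Its groups did not overlap either, and it fell by 1.15 ± 0.15 (SE, adjusted p = 0.00336), a 2.22-fold lower signal. The call remained in all 12 fits that left out 1 array, with adjusted p from 0.00354 to 0.02.

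Of the 38 genes, 29 had a negative difference between KO and WT livers, with a median of -0.20, against a median of 0.02 over all genes. The 3 KO livers lay wholly below the 3 WT livers for 13 genes and wholly above for 0, while over all genes the shares were 10.2% below and 9.85% above. Among the genes wholly below but not called were Gpt, alanine aminotransferase (-0.46), Asl, argininosuccinate lyase (-0.59), Tat (-0.59) and Cth, which releases cysteine from cystathionine (-0.62). The set's median was -0.13 without KO 1. Markers of Kupffer cells and macrophages were above their WT levels in the same comparison, 14 of 14, with a median of 1.29. So were 10 of 11 endothelial markers (median 0.29) and 8 of 8 T and NK cell markers (median 0.28), and 0 of the markers of these 3 lists were called, with 14, 8 and 5 at an unadjusted p under 0.05. Of the zonation markers, periportal Apoa4 was higher (1.88) and pericentral Cyp27a1 lower (-0.56, a call lost in 9 of 12 fits without 1 array) in KO livers. As lists, 7 of 11 periportal markers (median -0.20) and 8 of 14 pericentral markers (median -0.07) were negative, so Apoa4 went against its list. The part of these markers in the values of the set was not tested.

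RA in KO livers raised 2 of the 38 genes and lowered 0, while 0.5% of all genes were called, 0.274% as higher and 0.226% as lower. Tat, tyrosine aminotransferase, which takes the first step of tyrosine breakdown, read 12.62, 13.09 and 12.95 in the KO_RA livers, against 12.05, 11.90 and 11.96 in the KO livers. All KO_RA livers lay above all KO livers. It rose by 0.92 ± 0.16 (SE, adjusted p = 0.0376), 1.89-fold, with adjusted p up to 0.134 once any KO array, KO_RA 2 or KO_RA 3 was left out. Prodh read 10.20, 10.54 and 10.28 in the KO_RA livers, against 9.54, 9.13 and 9.67 in the KO livers. The groups did not overlap, and Prodh rose by 0.89 ± 0.15 (SE, adjusted p = 0.028), with adjusted p up to 0.105 when KO 2, KO 3, KO_RA 1, KO_RA 2 or KO_RA 3 was left out. Got1 read 11.08, 12.48 and 11.12 in the KO_RA livers, against 9.52, 9.96 and 10.63 in the KO livers, and its difference of 1.52 ± 0.37 did not pass (adjusted p = 0.0945).

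Over the set, 30 of 38 genes had a positive difference between KO_RA and KO livers, with a median of 0.19 against -0.03 over all genes. KO_RA livers lay wholly above KO livers for 11 genes and wholly below for 1, Otc, while over all genes 8.58% lay wholly above and 12.3% wholly below. The 8 sulfur genes were all on the positive side, from 0.03 to 0.84, and the branched chain genes ran from -0.12 to 0.86. The set's median was 0.12 without KO_RA 2. The comparison of KO_RA with KO and that of KO with WT share the KO livers, so values of opposite sign in these comparisons are not independent. The macrophage markers had 13 of 14 negative values here, with a median of -0.65 and 0 called (3 at an unadjusted p under 0.05). Endothelial markers were negative in 9 of 11, and Tek (-0.99) and Fcgr2b (-0.46) were called. Erythroid Alas2 (-3.68) and periportal Hsd17b6 (-1.89) were lower and neutrophil Lcn2 (2.62) higher in KO_RA livers. Their lists did not move with them: 4 of 7 neutrophil markers were negative (median -0.03) and 6 of 11 periportal markers positive (median 0.15). Of the neutrophil markers, S100a8 (6.30 in KO_RA, against 5.50 in KO livers) and S100a9 (7.38, against 6.87) were also positive, neither called. The other measured erythroid marker, Hba-a1, averaged 3.91 in KO_RA and 3.88 in KO livers. Fits without 1 array lost the call of Tek in 2, Hsd17b6 in 4, Lcn2 in 8, Alas2 in 9 and Fcgr2b in 11 of 12. The part of these markers in the values of the set was not tested.

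RA in wild type livers lowered 4 of the 38 genes and raised 0, while 1.27% of all genes were called, 0.871% as higher and 0.403% as lower. Otc, the urea cycle enzyme that joins ornithine to carbamoyl phosphate, read 11.62, 11.64 and 11.58 in the WT_RA livers, against 11.99, 12.01 and 11.96 in the WT livers. The groups did not overlap, and the difference was -0.37 ± 0.08 (SE, adjusted p = 0.0452). Of 12 fits that each dropped 1 array, 11 lost the call, which remained only without KO 1, with adjusted p from 0.0459 to 0.159. Agxt, the peroxisomal enzyme that turns glyoxylate into glycine, read 10.56, 10.58 and 10.62 in the WT_RA livers, against 11.30, 11.03 and 11.38 in the WT livers. It fell by 0.65 ± 0.12 (SE, adjusted p = 0.0213), with adjusted p up to 0.0892 when WT 1, WT 3 or any WT_RA array was left out.

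Hal, histidine ammonia lyase, which releases ammonia from histidine, read 10.07, 10.36 and 9.81 in the WT_RA livers, against 10.75, 11.04 and 11.02 in the WT livers. It fell by 0.85 ± 0.18 (SE, adjusted p = 0.0428), a call absent without any WT array, any WT_RA array or KO_RA 1, with adjusted p up to 0.163. Kynu, kynureninase of tryptophan breakdown, read 5.14, 5.02 and 5.11 in the WT_RA livers, against 5.63, 5.50 and 5.66 in the WT livers. It fell by 0.51 ± 0.09 (SE, adjusted p = 0.0213), with adjusted p up to 0.0875 when WT 1, WT 3, WT_RA 2 or WT_RA 3 was left out. Kynu was the only one of the 38 genes whose signal lay below the median of all values, 6.30, on these arrays, and a fall this near the background is uncertain in size. For all 4 called genes the WT_RA livers lay wholly below the WT livers. Without WT 1, WT 3, WT_RA 2 or WT_RA 3, 0 of the 38 genes were called (13 to 17 at an unadjusted p under 0.05), and without KO 1 and WT_RA 3 together only Kynu was.

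Of the 38 genes, 25 had a negative difference, with a median of -0.13 against -0.01 over all genes, and 11 lay wholly below and 3 wholly above the WT livers, against 7.86% and 8.77% of all genes. Cbs, which condenses serine with homocysteine, came nearest to a call (-0.63, adjusted p = 0.0636), and Mccc1, a subunit of the carboxylase of leucine breakdown, read -0.43 (adjusted p = 0.147). Without WT_RA 3 the median of the set was -0.07. The macrophage markers lay higher in WT_RA livers, 14 of 14 positive with a median of 1.03 and 1 called (Cd14, 1.12, lost in 9 of 12 fits without 1 array). Neutrophil Lcn2 (3.67), periportal Apoa4 (1.05) and pericentral Rhbg (1.02) were also higher and periportal Hsd17b6 (-1.71) lower in WT_RA livers. The Lcn2 call remained in all 12 fits, and those of the other 3 were lost in 4 or 5. The lists as wholes had medians near 0: 5 of 7 neutrophil markers were positive (0.05), 5 of 11 periportal markers (-0.16) and 8 of 14 pericentral markers (0.06). Even so, 3 of the 7 neutrophil markers lay wholly above the WT livers. S100a8 averaged 7.12 in WT_RA and 4.87 in WT livers, and S100a9 7.96 and 6.43, neither called. The part of these markers was not tested.

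RXRα deficiency under RA raised 2 and lowered 1 of the 38 genes, while 3.95% of all genes were called, 0.928% as higher and 3.03% as lower. Csad, cysteine sulfinic acid decarboxylase, a step from cysteine to taurine, read 10.75, 10.90 and 9.76 in the KO_RA livers, against 8.82, 7.50 and 7.56 in the WT_RA livers. It was higher by 2.51 ± 0.51 (SE, adjusted p = 0.0199), 5.7-fold. Leaving out WT_RA 2, WT_RA 3, KO_RA 1 or KO_RA 2 lost the call (adjusted p at most 0.0869). On the normal diet Csad read 9.59, 10.40 and 10.17 in the KO livers, against 9.61, 7.42 and 8.76 in the WT livers, and its difference of 1.46 ± 0.51 did not pass (adjusted p = 0.195), the groups overlapping at KO 1 and WT 1. Averaged over diets, Csad was higher by 1.98 ± 0.36 (SE, adjusted p = 0.00768) in deficient livers, a call that remained in all 12 fits without 1 array.

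Hal was higher in KO_RA livers, which read 10.89, 11.32 and 10.74, against 10.07, 10.36 and 9.81 in the WT_RA livers. The difference was 0.90 ± 0.18 (SE, adjusted p = 0.0177), lost without WT_RA 1, WT_RA 3, KO_RA 1 or KO_RA 2 (adjusted p at most 0.0717). Prodh read 10.20, 10.54 and 10.28 in the KO_RA livers, against 10.91, 11.02 and 11.03 in the WT_RA livers. It was lower by 0.65 ± 0.15 (SE, adjusted p = 0.0351), with adjusted p up to 0.143 when any WT_RA array, KO_RA 1 or KO_RA 3 was left out. Without WT_RA 3, without KO_RA 1, or without KO 1 and WT_RA 3 together, 0 of the 38 genes were called in this comparison, with 8 to 10 at an unadjusted p under 0.05. Of the other genes, Uroc1, urocanase, which takes the next step after Hal in histidine breakdown, read 0.52 (adjusted p = 0.0536) and Mccc1 0.49 (adjusted p = 0.0531), both just short of a call. The other Uroc1 probe set, with a mean signal of 10.08, read 0.00 in this comparison (adjusted p = 0.995 by limma over probe sets). KO_RA livers lay wholly above WT_RA livers for 13 genes and wholly below for 4, against 11.3% and 14.3% of all genes. In the same comparison 13 of 14 macrophage markers were negative (median -0.35, 0 called, 0 at an unadjusted p under 0.05). Periportal Apoa4 was higher (1.12) and pericentral Rhbg lower (-1.79), both calls remaining in all 12 fits without 1 array. As lists, 6 of 11 periportal markers were positive (median 0.00) and 9 of 14 pericentral markers negative (median -0.09). The part of these markers was not tested.

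**Figure D2:**
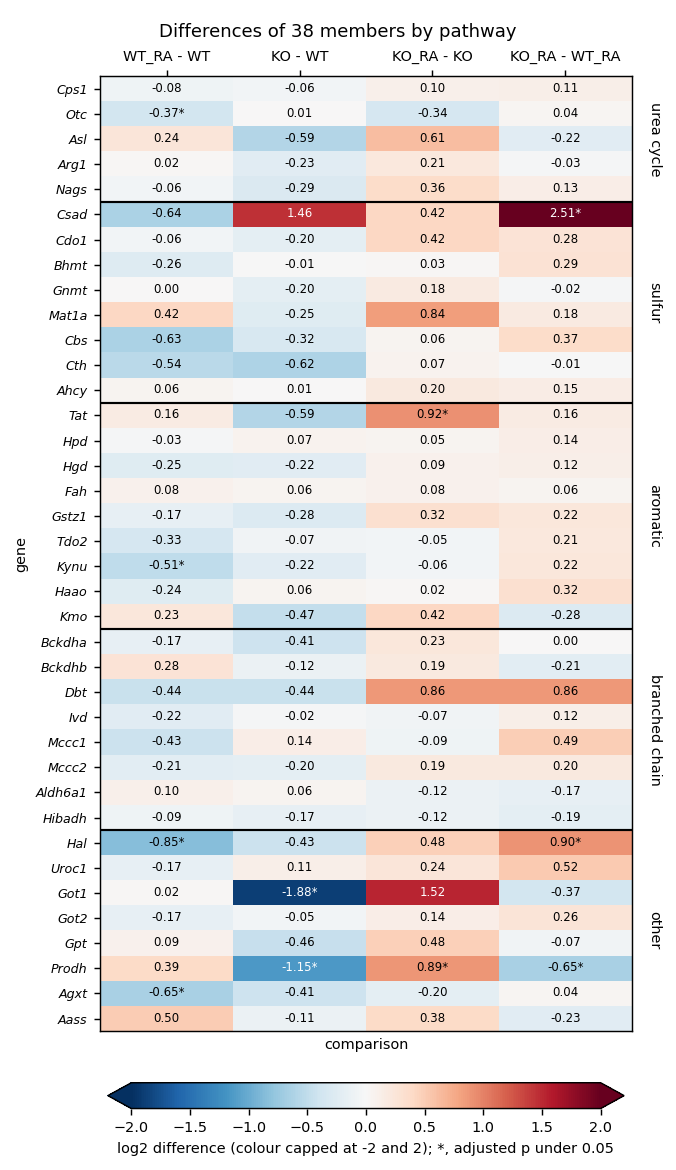
Heat map of the log2 difference of each of the 38 genes (grouped by pathway, top to bottom) in 4 comparisons, WT_RA minus WT, KO minus WT, KO_RA minus KO and KO_RA minus WT_RA, with the value in each cell. Red is higher and blue lower, colours are capped at -2 and 2, and an asterisk marks a call. KO minus WT is mostly blue, with Got1 and Prodh the deepest, while KO_RA minus KO is mostly red.

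The difference of the RA effects, the RA effect in KO livers minus that in wild type livers, asks whether RA acted alike in both genotypes. For 34 of the 38 genes it was positive, with a median of 0.36, against -0.02 over all genes, of which 45.0% were positive. None of the 38 genes was called at 0.05, and 13 had an unadjusted p under 0.05, while 1 of 12393 genes (0.00807%) was called and 11.7% had an unadjusted p under 0.05. Hal was nearest, with a difference of 1.33 ± 0.25 (SE, adjusted p = 0.0919). It was the only gene of the set lower in WT_RA than in WT livers and higher in KO_RA than in KO livers, both without overlap. Of all genes, 7.86% lay wholly lower with RA in wild type livers and 8.58% wholly higher with RA in KO livers. The share with both was not counted, so how unusual the Hal pattern is stays unknown. Got1 (adjusted p = 0.299) and Tat did not pass, the difference of Tat being 0.76 ± 0.23 (adjusted p = 0.255). Without KO 1 and WT_RA 3 together, 35 genes were positive and the median was 0.22. Leaving out 1 array at a time gave medians of 0.29 to 0.39 and 32 to 36 positive genes, with 0 called in each. Of the hepatocyte markers 11 of 12 were also positive (median 0.04), as were 9 of 11 periportal (0.17) and 8 of 14 pericentral markers (0.05). All 14 macrophage markers (median -1.61), all 11 endothelial markers (-0.22) and all 8 T and NK cell markers (-0.20) were negative. The part of all these markers in the values of the set was not tested.

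**Figure D3:**
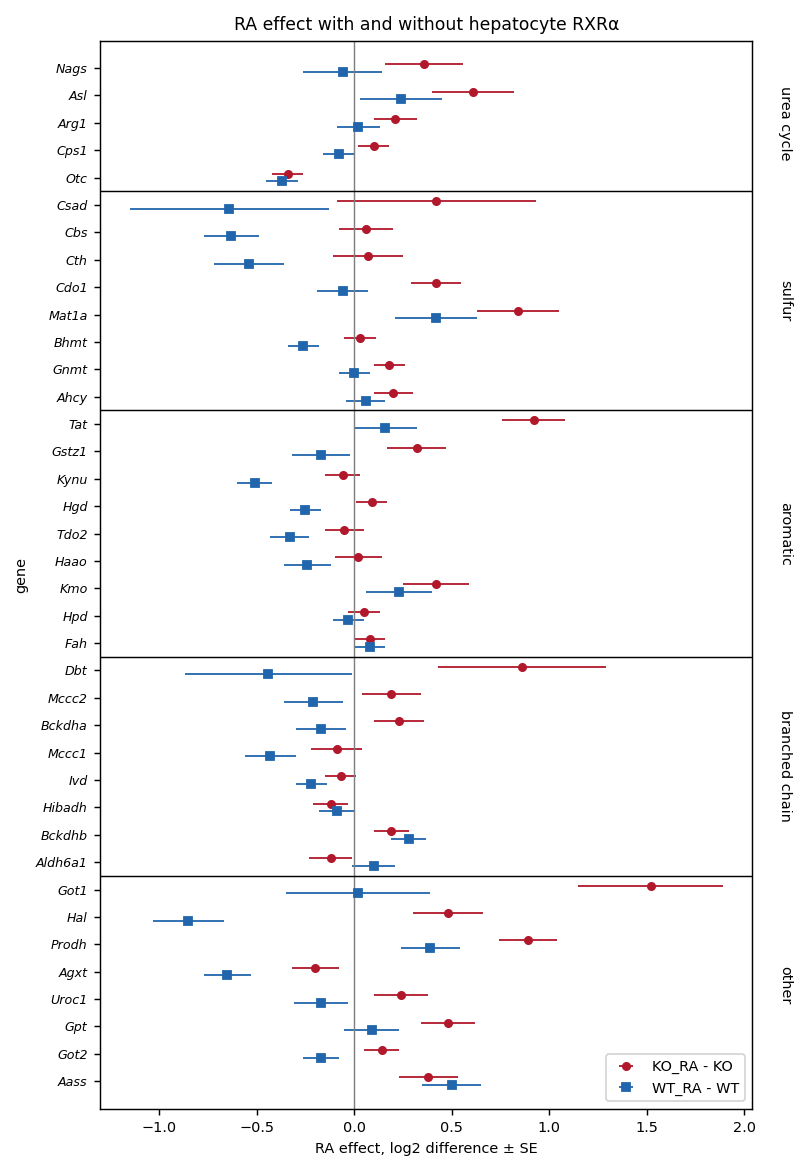
RA effect of each gene with its SE (points with bars, log2 scale), the KO genotype (KO_RA minus KO) above the wild type (WT_RA minus WT) for each gene. For 34 of 38 genes the KO point lies to the right, with Hal, Got1, Dbt and Csad the widest apart. None of the 38 differences between the genotypes was called, and Dbt read lowest on KO 1 (7.30) and WT_RA 3 (7.16).

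In the urea cycle, Otc read 11.59, 11.62 and 11.77 in the KO_RA livers, against 12.02, 11.91 and 12.07 in the KO livers. It lay lower with RA without overlap in both genotypes, though the difference in KO livers, -0.34, did not pass alone (adjusted p = 0.0808). Averaged over genotypes it fell by 0.36 ± 0.06 (SE, adjusted p = 0.00786), a call present in all 12 fits without 1 array. Cps1, which makes carbamoyl phosphate, Nags, which makes its activator, and Arg1, which releases urea, were called in none. Asl was not called either, its difference of -0.59 ± 0.21 between KO and WT livers having an adjusted p of 0.2. Of the other 2 Otc probe sets, the nearer to a call, with a mean signal of 7.49, read -0.43 for RA averaged over genotypes (adjusted p = 0.0509). The brighter, at 10.60, read -0.32 averaged (adjusted p = 0.163) and -0.16 in wild type livers (adjusted p = 0.781). With the mean of all Otc probe sets the call in wild type livers was lost (adjusted p = 0.0724), while the averaged call remained. Further probe sets of the 38 genes, 8 in all, were called in no comparison.

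Mat1a, which makes S-adenosylmethionine, read 13.08, 13.44 and 12.98 in KO_RA, 11.85, 12.51 and 12.60 in KO, 12.85, 13.18 and 12.94 in WT_RA and 12.91, 12.50 and 12.30 in WT livers. Averaged over genotypes, RA raised it by 0.63 ± 0.15 (SE, adjusted p = 0.0462), but 10 of 12 fits without 1 array lost the call. Csad was the only one of the 8 sulfur genes called in a comparison of 2 groups. Averages over genotypes also called Tat (0.54, adjusted p = 0.0319) and Prodh (0.64 ± 0.11, adjusted p = 0.0103) as higher with RA, and Agxt (-0.43, adjusted p = 0.0191) and Kynu (-0.29, adjusted p = 0.0386) as lower, so that RA averaged over genotypes called 6 genes, while 2.34% of all genes were called, 1.47% as higher and 0.871% as lower. Of the 12 fits without 1 array, 8 lost the averaged call of Tat, 11 that of Kynu, 3 that of Agxt and 0 that of Prodh. Without KO 1 and WT_RA 3 together, 4 genes were called, the calls of Mat1a (adjusted p = 0.0842) and Kynu (adjusted p = 0.0911) being lost. RXRα deficiency averaged over diets called 3 genes, while 5.34% of all genes were called, 1.42% as higher and 3.92% as lower: Csad, Got1 (-1.12 ± 0.26, adjusted p = 0.0285) and Prodh (-0.90 ± 0.11, adjusted p = 0.000483). After a filter on dim probe sets, 9.41% of 7484 genes were called, against 3 of 37 genes of the set. The Prodh call remained in all 12 fits without 1 array, with adjusted p up to 0.00222, and the Got1 call was lost in 8. Without KO 1 and WT_RA 3 together, Got1 was also lost (adjusted p = 0.0765), which left 2 genes.

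**Figure D4:**
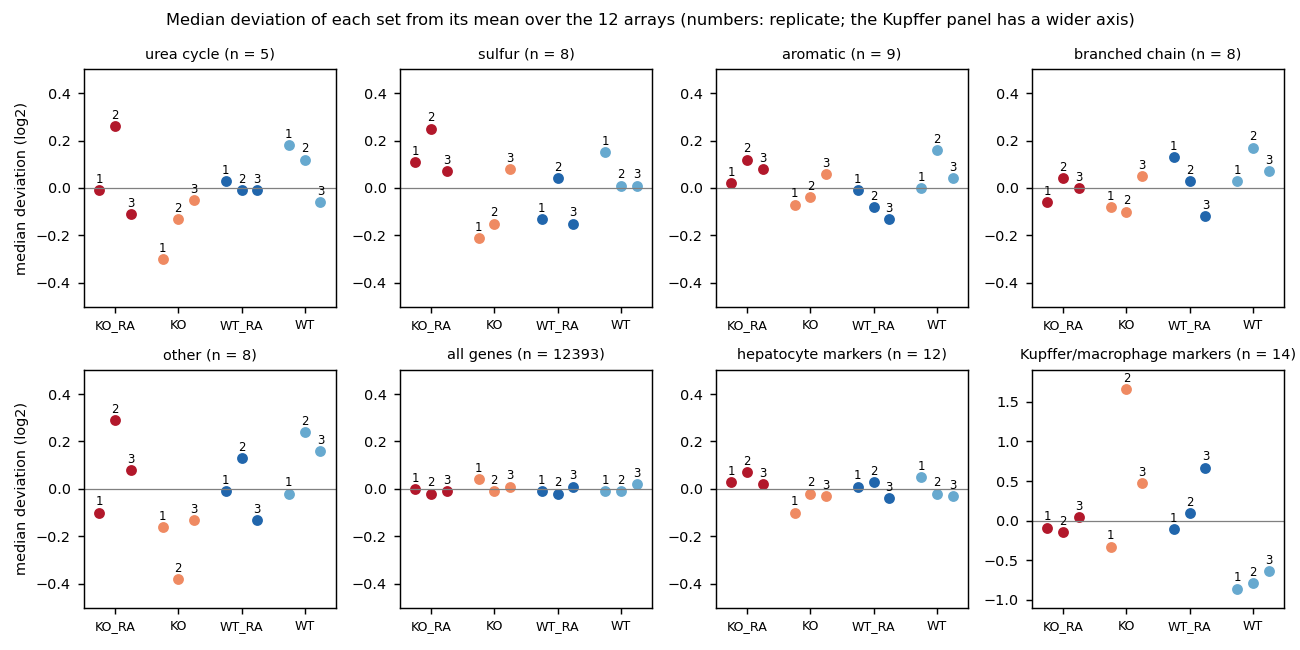
Median deviation (log2 units) of the genes of each pathway, of all genes and of 2 marker lists on each array, from their means over the 12 arrays, with groups KO_RA, KO, WT_RA and WT from left to right. KO 1 sits at -0.30 for the urea cycle and KO 2 at -0.38 for the other routes, while the macrophage markers, on a wider axis, reach 1.66 on KO 2.

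Of the aromatic genes, 9 were measured, and Tat and Kynu were called in a comparison of 2 groups. Fah, Hpd and Hgd, which carry tyrosine carbon to fumarate, and Tdo2, which opens the tryptophan ring, were not called in any. The 8 branched chain genes were never called. Mccc1 read 9.41, 9.35 and 9.53 in KO_RA, 9.75, 9.24 and 9.59 in KO, 8.90, 8.91 and 9.03 in WT_RA and 9.21, 9.50 and 9.43 in WT livers, so that its WT_RA livers lay below the other 9 livers. Dbt, a core subunit of the branched chain dehydrogenase, read 7.30 on KO 1 and 7.16 on WT_RA 3 and 8.38 to 9.32 on the other arrays, and these are the 2 arrays that stood apart on the Actb control.

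Neighbouring genes of amino acid metabolism outside the 41 were listed too, with 57 of 73 measured. Of these, RA in wild type livers lowered 3 and raised 0, while 1.27% of all genes were called: the glycine cleavage gene Gldc (-1.08), the histidine gene Amdhd1 (9.62 in WT_RA, against 10.61 in WT livers) and Hao1 (-0.62), a glycolate oxidase. RXRα deficiency on the normal diet, where 1.32% of all genes were called, raised 2, asparagine synthetase Asns (2.10) and Qprt of NAD synthesis (0.71), and lowered 3, of which the larger were sulfite oxidase Suox (-0.76) and Gch1 (-0.64), which starts the synthesis of the cofactor of phenylalanine hydroxylase. Under RA, where 3.95% of all genes were called, it raised 2, the larger being Gldc (9.65 in KO_RA, against 8.64 in WT_RA livers), and lowered 5, led by Suox (-0.85), the polyamine enzyme Odc1 (-0.79) and the kynurenine aminotransferase Aadat (-0.66). RA in KO livers, where 0.5% of all genes were called, called 0 of the 57 by limma, with 13 at an unadjusted p under 0.05. By sign, 40 of the 57 were negative for RA in wild type livers (median -0.07) and 30 positive for RA in KO livers (median 0.04). RXRα deficiency on the normal diet gave 35 negative values (median -0.07), and the difference of RA effects 35 positive values (median 0.09). Of 22 regulators of amino acid breakdown, 2 were called for RA in wild type livers, 1 for RXRα deficiency on the normal diet, 1 for RA in KO livers and 3 for RXRα deficiency under RA, to be read against the same shares. Cebpa, a transcription factor of hepatocytes, fell by 0.85 with RA in wild type livers (adjusted p = 0.0102), and Cebpb, of the same family, was lower by 0.87 in KO than in WT livers (adjusted p = 0.0423) and rose by 1.14 with RA in KO livers (adjusted p = 0.0252). The retinoic acid receptor gene Rarb rose by 1.42 with RA in wild type livers. Under RA, Cebpa was higher (0.53) and Sirt1 (-0.99) and Creb3l3 (-0.59) lower in deficient livers. Of 17 amino acid and mitochondrial carriers, Slc7a5 (0.43) and the ornithine carrier gene Slc25a15 (-0.39) were called on the normal diet, and the glycerol and urea channel gene Aqp9 (0.37) under RA, that is 2 and 1 of 17 genes against 1.32% and 3.95% of all. Of the calls named from these 3 lists, those of Asns, Rarb and Sirt1 remained in all 12 fits without 1 array, and the others were each lost in 1 to 11, most often those of Hao1 and Gch1.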

How the data were processed

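Total liver RNA from 12 mice was hybridised to Affymetrix arrays. The authors deposited log2 values, 1 per probe set and array. The submitters' processing notes name RMA and Partek 6.11, whereas MAS5 and a filter on detection are given in the study's methods for its own analysis. Scanner data were not analysed here and the normalization was not repeated. Of 22690 probe sets, 20380 had 1 gene symbol, 691 several and 1555 none; each gene was represented by its single-symbol probe set with the highest mean, giving 12393 genes, with no filter on dim probe sets. Means per group were fitted with limma 3.58.1 in R 4.3.3 (8 residual degrees of freedom, two-sided, Benjamini-Hochberg over all genes) for 7 contrasts, and tested on simulated data. Depth does not apply to arrays, whose number limits the precision. Alternatives were another summary of probe sets, quantile normalization, median centring, a filter on dim probe sets, fits of only the groups compared, a replicate block, array weights and leaving out arrays. The genes with values on every array were those called in a contrast and, in each pathway, the one with the largest t. The members and lists were chosen with earlier results of these data known.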

Additional observations from a re-analysis of the deposited data

How the results depend on the processing

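Of 20 called values of single genes, 389 alternative values were computed: 268 kept their direction and call, 121 kept their direction without the call and 0 reversed. The number of the 38 genes called was 4 for RA in wild type livers, and 1 with only the groups compared, 2 with the replicate block, 13 with array quality weights, 1 without KO 1 and WT_RA 3, and 0 to 5 without 1 array. For RXRα deficiency on the normal diet it was 2, with 12 under weights, 1 without KO 1 and WT_RA 3, and 1 to 3 without 1 array. For RA in KO livers it was 2, with 0 using only the groups compared (11 at an unadjusted p under 0.05), 1 with the block, and 0 to 2 without 1 array. For RXRα deficiency under RA it was 3, with 5 after quantile normalization, 5 after the filter on dim probe sets, 5 with only the groups compared, 6 with weights, 0 without KO 1 and WT_RA 3, and 0 to 5 without 1 array. For the difference of RA effects it was 0, with 2 under weights (Hal and Kynu) and 0 to 0 without 1 array. For RA averaged over genotypes it was 6, with 3 under the block, 11 under weights, 4 without KO 1 and WT_RA 3 and 2 to 5 without 1 array, and for RXRα deficiency averaged over diets 3, with 5 after quantile normalization, 10 under weights, 2 without KO 1 and WT_RA 3 and 2 to 4 without 1 array. The filter on dim probe sets left 37 of the 38 genes and 7484 genes in all. Of the 7484, 2.02% were called for RA in wild type livers, with 3 of the 37. The share was 2.22% for RXRα deficiency on the normal diet (2 of 37) and 0.962% for RA in KO livers (2). It was 6.67% for RXRα deficiency under RA (5) and 3.98% for RA averaged over genotypes (6). For RXRα deficiency averaged over diets it was 9.41% (3). Weights gave WT 2 a weight of 7.12, against 0.32 to 2.18 for the others, and raised the share of all genes called as well: to 8.63%, against 1.27% without weights, for RA in wild type livers, 14% for RXRα deficiency on the normal diet, 8.59% for it under RA, 1.99% for the difference of RA effects, 8.15% for RA averaged over genotypes and 19.1% for RXRα deficiency averaged over diets. The larger counts are to be read against these shares and with the high weight of WT 2 in mind. Deviations from group means correlated at -0.458 to 0.266 over 18 pairs of same-numbered arrays, 5 of them over 0.1. This check did not show that the numbers pair the arrays, and with 3 arrays per group it cannot exclude it. The cause of the changes in counts was not tested. With 3 arrays per group, standard errors of single genes ran from 0.08 (Cps1) to 0.51 (Csad) in comparisons of 2 groups, which limits what could be called.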
